A study of Homo sapiens with 42 samples.

Results

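Open chromatin at the starts of long noncoding RNA (lncRNA) genes was examined in 42 ATAC-seq libraries of MCF10A cells. Peaks of all libraries on the autosomes and chromosome X were merged where they overlapped by 1 bp or more, which gave 167085 sites, and 129254 of these held a peak in 2 or more libraries. A site was taken as a lncRNA start when the summit of at least 1 of its peaks lay within 1 kb of a lncRNA transcription start in GENCODE release 44 and more than 5 kb from every protein-coding start. This rule gave 3607 sites, or 2.79% of all sites, at the starts of 3052 lncRNA genes. The rule used detection in 2 or more libraries of any treatment, the summit positions and the annotation, and no difference between treatments.

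ATAC-seq marks stretches of DNA that a transposase can enter, and the deposited files list such stretches as peaks. MCF10A is a non-tumorigenic line grown from human breast epithelium, so the data describe a single established line. All cells were kept on collagen-1-coated wells in a medium with horse serum, hydrocortisone and cholera toxin, and spent a period without EGF and insulin before treatment. The CTRL cells were taken at 0 h (4 libraries, whose labels give PBS as the treatment). The other cells received PBS as the vehicle, 10 ng/ml EGF, 40 ng/ml HGF or 10 ng/ml OSM, or EGF together with 20 ng/ml IFNG or 10 ng/ml TGFB, and were taken at 24 h or 48 h. EGF had 4 libraries at each time and every other treatment had 3. PBS was the comparison for EGF, HGF and OSM, and EGF alone was the comparison for IFNG+EGF and TGFB+EGF. Replicates carried the letters A to D. The study describes its replicates as biological. The labels do not say which libraries came from separately grown cultures, so p-values measure the spread between these libraries. That spread was estimated within all 13 groups of treatment and time together, and not only within the groups compared.

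A lncRNA is an RNA transcribed from its own start that does not encode a protein. Some act on chromatin or on neighbouring genes, some hold small nucleolar RNAs or microRNAs in their introns, and for many no function is known. Many lncRNA starts coincide with enhancers, and others resemble the CpG-rich promoters of housekeeping genes. EGF, HGF and OSM act through the receptors EGFR, MET and the OSM receptor. IFNG acts in part through interferon regulatory factors (IRFs), and TGFB acts through SMAD proteins.

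The sequences below show the accessible stretch at 7 lncRNA starts on which the results turn. Each is 201 bases of the hg38 plus strand, 5′ to 3′, centred on the median summit of the site, and capitals mark matches to a panel of 12 motifs searched on both strands. LINC01358 (chr1:59020287-59020487) and GBP1P1 (chr1:89407499-89407699) are shown as sites gained with IFNG, and LINC02552 (chr11:104573520-104573720) as a site lost with it. LINC02739 (chr11:59566163-59566363) and SFTA3 (chr14:36478844-36479044) are shown as sites gained with OSM, the former also with EGF, and LINC00598 (chr13:40350502-40350702) as a site lost with both. ITGB1-DT (chr10:32980559-32980759) is shown as a site open in all libraries, and was chosen after its values were seen.
LINC01358: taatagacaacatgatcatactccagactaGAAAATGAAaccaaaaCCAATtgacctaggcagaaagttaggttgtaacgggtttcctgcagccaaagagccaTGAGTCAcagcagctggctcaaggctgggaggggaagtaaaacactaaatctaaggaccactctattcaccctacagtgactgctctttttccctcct
GBP1P1: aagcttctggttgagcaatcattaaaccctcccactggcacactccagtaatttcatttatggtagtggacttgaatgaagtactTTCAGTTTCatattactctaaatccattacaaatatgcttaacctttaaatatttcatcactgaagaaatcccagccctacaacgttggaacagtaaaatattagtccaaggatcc
LINC02552: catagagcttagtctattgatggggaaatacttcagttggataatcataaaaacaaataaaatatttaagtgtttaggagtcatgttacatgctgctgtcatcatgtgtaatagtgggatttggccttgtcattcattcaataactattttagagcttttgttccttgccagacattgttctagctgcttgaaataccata
LINC02739: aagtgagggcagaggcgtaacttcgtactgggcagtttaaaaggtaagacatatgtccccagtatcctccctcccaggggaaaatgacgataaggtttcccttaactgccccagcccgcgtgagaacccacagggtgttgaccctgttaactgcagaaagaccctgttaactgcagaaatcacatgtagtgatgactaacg
SFTA3: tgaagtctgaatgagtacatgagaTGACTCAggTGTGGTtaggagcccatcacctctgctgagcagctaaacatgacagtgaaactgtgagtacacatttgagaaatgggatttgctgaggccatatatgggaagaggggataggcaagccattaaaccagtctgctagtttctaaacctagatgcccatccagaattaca
LINC00598: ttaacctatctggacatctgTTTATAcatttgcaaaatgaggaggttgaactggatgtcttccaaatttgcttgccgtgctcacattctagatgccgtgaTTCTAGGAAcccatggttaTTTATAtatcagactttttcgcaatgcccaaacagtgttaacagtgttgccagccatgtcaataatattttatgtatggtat
ITGB1-DT: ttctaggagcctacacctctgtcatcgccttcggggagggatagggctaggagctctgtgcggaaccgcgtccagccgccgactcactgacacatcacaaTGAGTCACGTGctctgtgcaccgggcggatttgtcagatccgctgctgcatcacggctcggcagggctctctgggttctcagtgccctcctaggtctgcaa

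The LINC01358 stretch held an IRF match (GAAANNGAA), an AP-1 match (TGANTCA) and a CAAT box (CCAAT). GBP1P1 held the IRF match on the other strand (TTCNNTTTC) and no other. SFTA3 held AP-1 beside a RUNX match (TGTGGT), and LINC00598 held a STAT match (TTCNNNGAA) between a pair of TATA boxes (TATAAA, here read as TTTATA). In ITGB1-DT an AP-1 match overlapped an E-box (CACGTG), in a stretch with 60.7% G and C and 13 CpG pairs. LINC02552 and LINC02739 held no match to the panel. Over all 129254 sites, windows of this length held the IRF match in 7.93%, STAT in 7.70%, AP-1 in 37.3%, RUNX in 16.4%, the CAAT box in 23.8%, the TATA box in 10.1% and the E-box in 3.35%. The remaining letters searched were GGAATG (TEAD), in 16.0% of sites, TTGCNNCAA (C/EBP) in 1.82%, GTCTAGAC (SMAD) in 0.223%, CCGGAAG (ETS) in 2.25% and GGGCGGG (SP and KLF) in 7.38%.

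The 3607 sites were spread over many genes, most of which have no given name. A total of 2638 genes held 1 site, 414 held 2 or more, and the highest number was 14. The share of a chromosome's sites that were lncRNA starts ran from 1.87% on X to 5.71% on 21. Symbols other than an Ensembl identifier or clone name were available for 1596 sites, and 2011 sites (55.8%) had none. LINC genes accounted for 841 sites, antisense lncRNAs for 280, microRNA hosts for 62, divergent transcripts for 37 and small nucleolar RNA hosts for 18. Of the 13008 lncRNA genes with a start more than 5 kb from every protein-coding start, 3034 (23.3%) held a site. The qualifying summit nearest to a start lay at a median distance of 79 bp from it, within 100 bp in 1935 sites (53.6%), and upstream of it in 1879 sites (52.1%). At 26 sites another summit lay within 5 kb of a protein-coding start. The 143 sites in the last 100 bp inside the 1 kb limit were detected in a median of 17 libraries, and the 156 sites in the next 100 bp outside it in a median of 10.

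A lncRNA start was open in a median of 21 of 42 libraries (quartiles 8 and 33), against 14 for all sites, 11 for the 90415 distal sites and 30 for the 19930 sites at protein-coding promoters. A total of 686 lncRNA starts (19%) were seen in 5 or fewer libraries, against 31.9% of distal sites. Base composition separated the starts into a pair of kinds. CpG-rich starts, with a G and C content of at least 50% and an observed-to-expected CpG ratio of at least 0.6 in the 501 bp around the summit, numbered 716 (19.9%), against 57.8% of protein-coding promoters and 1.5% of distal sites. They were open in a median of 33 libraries and had a median width of 908 bp, and the other 2891 starts were open in a median of 17 libraries with a median width of 565 bp. Sites with a summit within 100 bp of the start were more often CpG-rich (29.8%) than those farther away (8.31%), and were open in a median of 26 libraries against 13. The nearest summit of a site was used, and a site open in more libraries has more summits. Such a site is thus more likely to have a near one, so these values cannot show an effect of distance. The comparison of lncRNA starts with distal sites has the same limit. A single summit within 1 kb could make a site a lncRNA start, and a distal site had no summit within either distance limit.

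**Figure D1:**
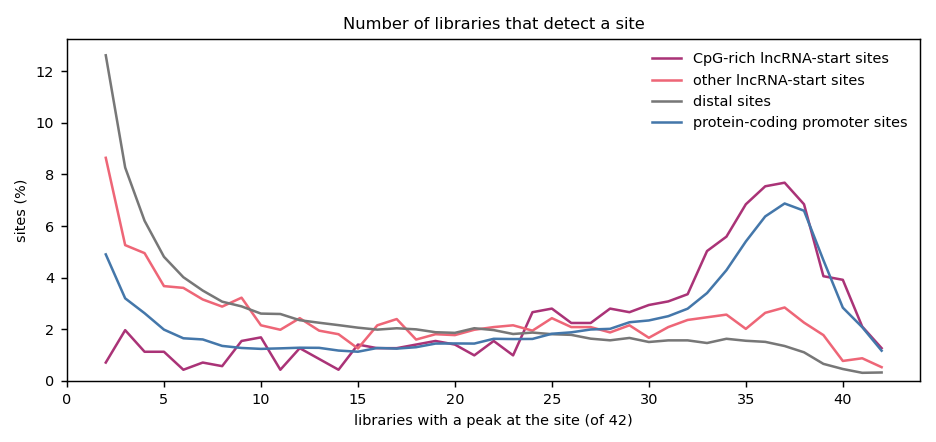
Number of libraries with a peak at a site (horizontal axis, of 42) against the share of sites of each class (vertical axis, %), with 1 line each for CpG-rich lncRNA starts, other lncRNA starts, distal sites and protein-coding promoters. CpG-rich lncRNA starts peak near the right, at a median of 33 libraries, and other lncRNA starts spread over the whole range with a median of 17, between distal sites (11) and protein-coding promoters (30).

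The motif content of the classes differed in the same way. SP and KLF letters were found in 38.4% of CpG-rich lncRNA starts and 4.88% of the others, and ETS letters in 11.6% and 1.63%. AP-1 letters were found in 4.89% of CpG-rich lncRNA starts and 40.7% of the others, near the 42.4% of distal sites. The SP, KLF and ETS letters hold a CpG and are rich in G and C, and the AP-1 letters hold none. Since the classes were defined by G, C and CpG content, these differences follow in part from that definition. The shares describe letters in a window and do not show that a factor bound there.

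Detection rose with the number of peaks that a library lists, and the peak number ranged from 4217 to 113805. A total of 8 libraries listed fewer than 30000 peaks, of which 4 were TGFB+EGF, 2 were IFNG+EGF, 1 was PBS at 48 h and 1 was OSM at 48 h. The study's quality check, on the share of reads in peaks, set aside 12 of the 42 libraries used here. They were 4 of TGFB+EGF, 3 of OSM, 2 of IFNG+EGF and 1 each of PBS, HGF and EGF, and they took in the 8 libraries under 30000 peaks. All 42 were used in the main comparisons, and the counts of calls are also given without the 12, an alternative chosen after seeing the data. The files hold no read counts, so depth was unknown. Between 95 and 2840 lncRNA starts were detected per library, and these made up 2.92% to 4.07% of the sites the library detected. The median fold enrichment at their summits, which is the pileup over the local background, was 4.86 to 9.11. A summit within 1 kb of the gene start was found for the basal markers KRT5 and KRT17 in 31 and 29 libraries, and for 7 of the 8 basal markers in at least 10. TP63 had none, nor had CD3E and SPI1 of blood and CDH5 and VWF of endothelium, while PTPRC of blood had one in 9 libraries, PECAM1 of endothelium in 28, and COL1A2, PDGFRB and DCN of fibroblasts in 26, 13 and 9. Of the luminal markers KRT8 and KRT18 had one in 36 libraries each, ESR1 in 2 and PGR in 1. The part of other cells in the results was not tested.

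Across treatments, lncRNA starts as a whole followed the number of peaks. The share of the 3607 sites detected was 77.7 ± 0.690% in CTRL (SD, n = 4), where the libraries listed 109226 to 113805 peaks. It was 49.2 ± 21.8% and 33.9 ± 16.2% with PBS at 24 h and 48 h (SD, n = 3 each), and 56.7 ± 15.7% and 62.3 ± 3.59% with EGF (SD, n = 4 each). HGF gave 57.2 ± 20.0% and 54.7 ± 20.0%, and OSM gave 50.5 ± 20.0% and 33.4 ± 24.4% (SD, n = 3 each). IFNG+EGF gave 40.5 ± 16.0% and 44.9 ± 34.9%, and TGFB+EGF gave 27.2 ± 37.5% and 22.6 ± 21.5% (SD, n = 3 each). With both times together, the ranges of the treatments other than CTRL overlapped.

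Detection was therefore adjusted for peak number: from the detection of a site (1 or 0), the share of sites seen in the same number of libraries that the library detects was subtracted. On this scale 0 is the usual rate for that library, and a mean over sites is given in percentage points. The adjusted mean over lncRNA starts ranged from −1.88 to 2.17 points over the libraries. It was 1.22 ± 0.884 points in CTRL (SD, n = 4), −0.816 ± 0.143 and −1.31 ± 0.490 with TGFB+EGF at 24 h and 48 h, and −0.977 ± 1.03 and −0.924 ± 0.60 with OSM (SD, n = 3 each). The other 8 groups had means from −0.191 to 0.873, and all but EGF at 48 h, at 0.824 ± 0.422 (SD, n = 4), lay within their SD of 0. Without the libraries set aside, the mean was 0.357 in EGF at 48 h, −0.337 in HGF at 48 h and −1.20 in the single TGFB+EGF library at 24 h, and in the other 10 groups it moved by less than the SD.

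CpG-rich starts had group means farther from 0 than the other starts in every group except CTRL. In CTRL their mean of 0.495 points lay below that of the other starts. The gap was small with PBS at 24 h, at 0.475 ± 3.22 points for CpG-rich starts and 0.449 ± 1.53 for the others (SD, n = 3 each). With HGF at 48 h the means were −0.540 ± 2.71 and 0.264 ± 0.286 points (SD, n = 3 each). With PBS at 48 h their adjusted mean was 4.95 ± 2.58 points (2.06 to 7.01, n = 3), and with TGFB+EGF at 48 h it was −4.84 ± 2.62 points (−7.80 to −2.84, SD, n = 3). EGF and IFNG+EGF at 48 h gave 2.64 ± 1.31 (SD, n = 4) and 2.78 ± 1.43 points (SD, n = 3), and OSM gave −2.34 ± 2.39 and −2.78 ± 1.39 points at 24 h and 48 h (SD, n = 3 each). Protein-coding promoters had 4.03 ± 0.773 points with PBS at 48 h and −3.96 ± 1.91 with TGFB+EGF at 48 h (SD, n = 3 each), with the same signs. The starts that were not CpG-rich had −1.06 ± 0.648 and −0.439 ± 0.120 points in these groups (SD, n = 3 each). Without the libraries under 30000 peaks, the CpG-rich mean was 5.63 points with PBS at 48 h (n = 2) and −4.19 points in the single remaining TGFB+EGF library at 48 h. Without those the study set aside it was 4.77 and −4.52 points with the same n. These means carry no test.

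**Figure D2:**
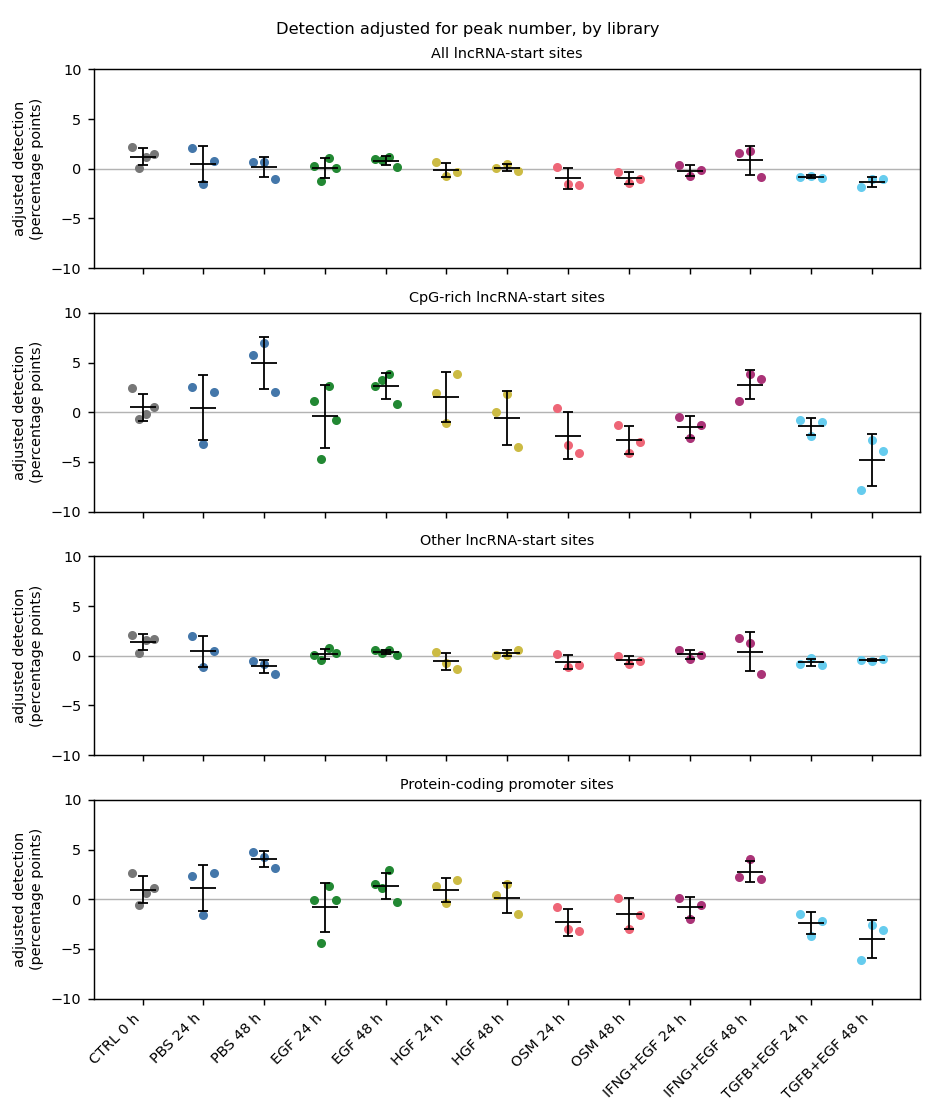
Adjusted detection in each library (vertical axes, percentage points, 0 is the usual rate) for all lncRNA starts, CpG-rich starts, other starts and protein-coding promoters, by treatment and time (horizontal axis). Points are libraries, bars are the mean and SD, and CpG-rich starts range from a mean of 4.95 points with PBS at 48 h to −4.84 points with TGFB+EGF at 48 h.

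The comparison of IFNG+EGF with EGF asked which starts the interferon changed in the presence of the growth factor. With both times together, 39 lncRNA starts were gained, or 1.08% of them beside 1.13% of all sites, and 4 were lost, or 0.111% beside 0.231% of all sites. The share gained was near that of all sites. A site was called gained or lost in limma, fitted over all sites and 42 libraries, when its adjusted p (Benjamini-Hochberg) was under 0.01 and its adjusted detection differed by 0.5 or more, where 1 is about the change from no library to all. The median difference was −0.0296 over the lncRNA starts and −0.0305 over all sites. The gained starts had been seen in 0 of 8 EGF libraries in 28 of 39 cases and were found in a median of 4 of 6 IFNG+EGF libraries. A total of 22 of the 39 (56.4%) were seen in fewer than 2 libraries outside IFNG+EGF, as were 849 of the 1455 sites gained over all (58.4%). Such starts entered the set of sites only through the group in which they were high and had to differ, so their values below are a description with no p. The other 17 would have been kept without IFNG+EGF. A total of 20 of the 39 were absent from all CTRL libraries, 10 were open in all 4 of them, and 20 had a summit within 100 bp of the start. None of the 39 was CpG-rich, as were 0.550% of all sites gained. By kind of name, 7 of the 39 were LINC genes, 5 were antisense lncRNAs, 1 was a small nucleolar RNA host and 20 had an identifier only.

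A wide site near the start of ENSG00000258666 (chr14:100329782-100333460) was open in all 6 IFNG+EGF libraries and in no other library. Its nearest summit lay at −535 bp from the start, which is at position 100333790. The median summit, at position 100331682, lay farther from the start than the 1 kb limit, so the opening was not centred on it. The difference was 1.03 ± 0.0729 (SE), and its fold enrichment was low, at 2.99 to 4.22. The start of ENSG00000287839 (chr1:155637286-155637770), with a summit −7 bp from it, was open in 5 of 6 IFNG+EGF libraries and in no other, with fold enrichments of 4.98 to 16.6 (difference 0.823 ± 0.0886). The missing library was IFNG+EGF at 48 h replicate C, which listed 6742 peaks, and it was also the missing one at LINC01358, LINC02237, GBP1P1, LINC02000 and LINC02060 below.

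LINC01358, an intergenic lncRNA on chromosome 1, was open in all 3 IFNG+EGF libraries at 24 h with fold enrichments of 4.24, 4.55 and 4.45, and in 2 at 48 h with 8.32 and 7.61. Outside IFNG+EGF it was open only in PBS at 24 h replicate A, at 5.11. The nearest summit lay 1 bp from the start, and the median summit fell in a LINC01358 exon, 236317 bp from the nearest protein-coding start (difference 0.867 ± 0.106).

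GBP1P1, a pseudogene of the interferon-induced guanylate-binding proteins, was open in all 3 IFNG+EGF libraries at 24 h, with fold enrichments of 9.94, 7.14 and 6.95, and in 2 at 48 h, with 10.9 and 14.5. A single EGF library, replicate C at 48 h, showed it at 4.80. The IFNG+EGF values were all higher than that one (difference 0.742 ± 0.123). The site (chr1:89407322-89408003) lies between genes, 43415 bp from the nearest protein-coding start.

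LINC02237 was open in 5 of 6 IFNG+EGF libraries and 1 of 4 CTRL libraries, with a difference of 0.867 ± 0.129. Among starts that did not depend on IFNG+EGF to be kept, LINC02000 was open in 5 of 6, 2 of 4 CTRL and 2 of 6 HGF libraries, and in no EGF library (0.924 ± 0.168, limma adjusted p 0.000661). LINC02060 was open in 5 of 6, 1 of 4 CTRL and 1 of 8 EGF libraries (0.761 ± 0.139, limma adjusted p 0.000722). The nearest summit of LINC02060 lay 864 bp from its start, and the median summit fell in its intron and in an exon of TMEM161B-DT.

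A further 5 named starts were open in 2 of 3 IFNG+EGF libraries at each time and in no other library. They were XXYLT1-AS2 and NEURL1-AS1, which lie antisense within introns of XXYLT1 and NEURL1, the pseudogene GTF2IP1, the galectin pseudogene LGALS17A, and LINC00158. Each had a difference of 0.640 ± 0.110, since their detection was the same in every group. Their fold enrichments ranged from 2.96 to 4.01 at LGALS17A and from 6.47 to 11.1 at LINC00158. GTF2IP1 has near-identical copies in the genome, and reads shared between them could not be told apart.

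The 4 lost starts were open in 7 or 8 of the 8 EGF libraries and in 0 of 6 IFNG+EGF libraries. LINC02552, whose nearest summit lay 639 bp from the start, was open in 8 of 8 EGF and 4 of 4 CTRL libraries (difference −0.707 ± 0.135, limma adjusted p 0.00129). MAILR gave the same counts (−0.723 ± 0.143, adjusted p 0.00200), and LINC00640 was open in 8 of 8 EGF, 4 of 4 CTRL and 4 of 6 PBS libraries (−0.673 ± 0.153, adjusted p 0.00626). Their absence was not limited to IFNG+EGF. LINC02552 and MAILR were open in 1 of 6 PBS, 0 of 6 OSM and in 4 and 5 of 6 HGF libraries, and LINC00640 in 4 of 6 OSM and 5 of 6 HGF libraries. With TGFB+EGF, where 4 libraries listed fewer than 30000 peaks, LINC02552, MAILR and LINC00640 were open in 2, 0 and 2 of 6.

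**Figure D3:**
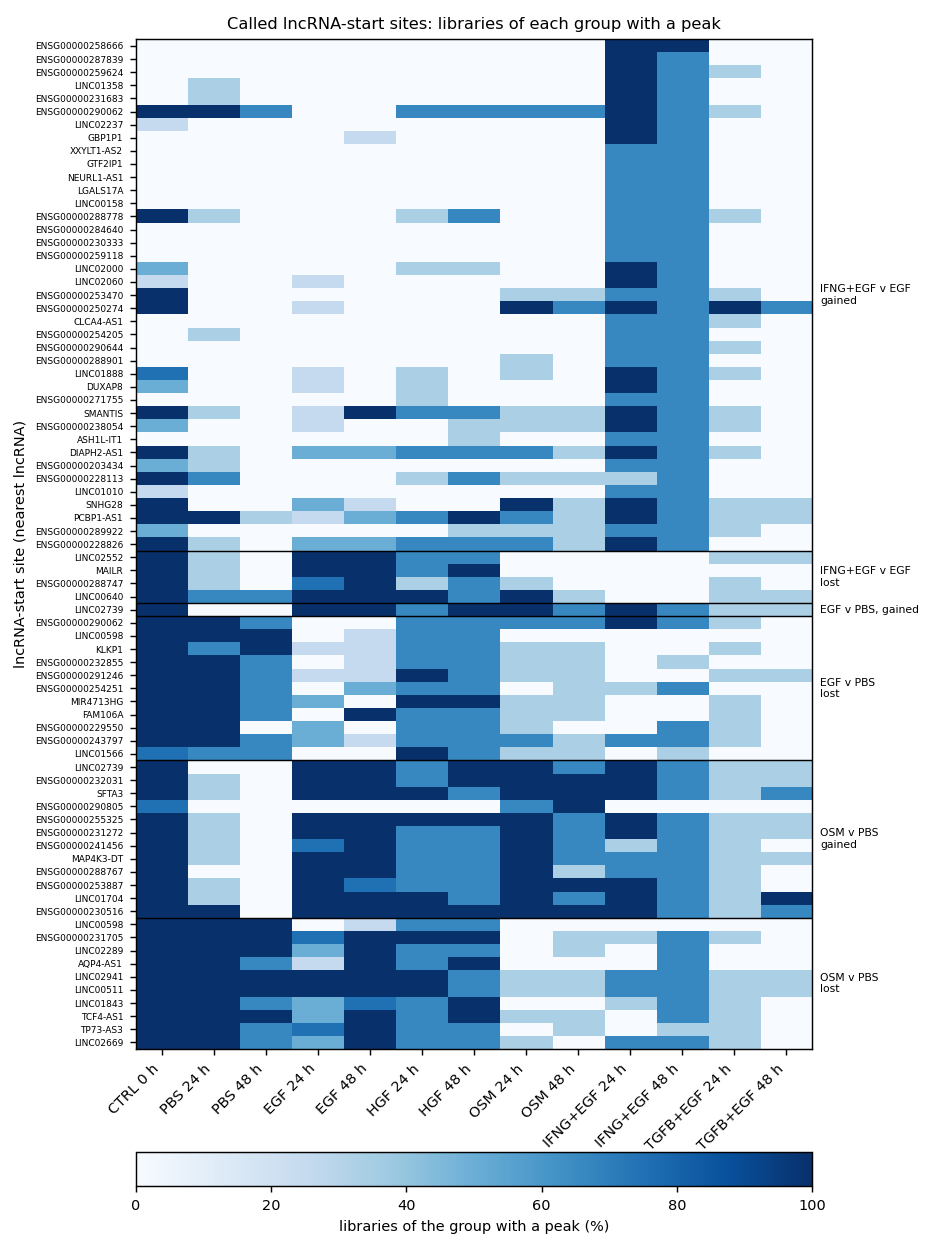
Share of the libraries of each treatment and time with a peak (colour, 0 to 100%) at each called lncRNA start (rows, in blocks by comparison and direction). The upper block of 39 starts gained with IFNG is dark in the IFNG+EGF columns and pale with EGF, where 28 of them were absent.

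IRF letters were found in 14 of the 39 starts gained with IFNG (35.9%), against 7.04% of all lncRNA starts and 7.93% of all sites. Among all 1455 sites gained with IFNG the share was 44%. STAT letters were found in 5 of 39 (12.8%), against 6.54% of lncRNA starts and 15.7% of all gained sites, and AP-1 letters in 13 of 39 (33.3%), near the 33.6% of all lncRNA starts. Of the starts printed above, LINC01358 and GBP1P1 carry the IRF letters, as do GTF2IP1, NEURL1-AS1 and LINC00158.

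**Figure D4:**
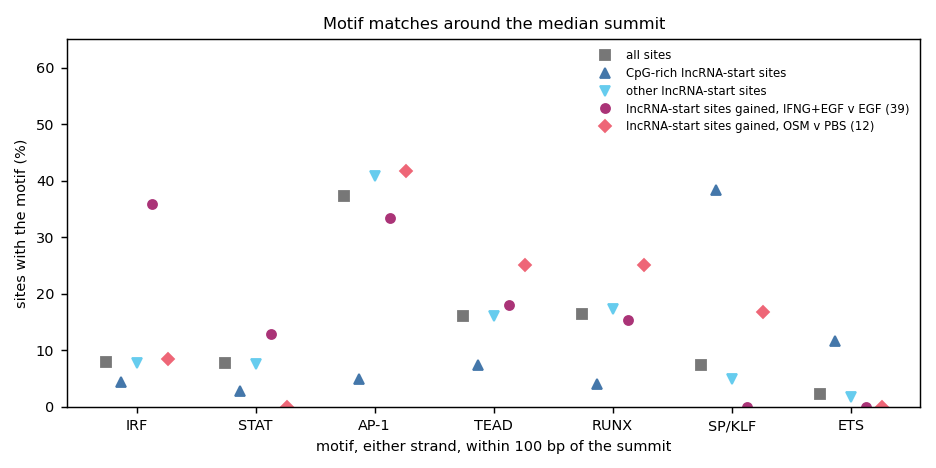
Share of sites with a motif match within 100 bp of the median summit (vertical axis, %) for 7 motifs (horizontal axis), in all sites, CpG-rich and other lncRNA starts, and the starts gained with IFNG (39) and with OSM (12). IRF letters stand at 35.9% of the starts gained with IFNG and 7.93% of all sites, and SP/KLF letters at 38.4% of CpG-rich starts.

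The size of the IFNG set depended on the 3 libraries at 48 h. Without IFNG+EGF at 48 h replicate C 95 starts were called, and without replicate A or B of that group 21 and 23 were called. Without the 8 libraries under 30000 peaks there were 64 gained and 14 lost, and without the 12 libraries set aside 56 and 16, with 30 of the 39 gained starts and the 4 lost starts among them. Unadjusted detection gave 24 gained and 12 lost. Of the 39 gained starts, 20 were called in each fit that left out 1 of the 42 libraries, and 8 when only EGF and IFNG+EGF libraries were fitted. A further 17 starts, 14 of them gained, had an adjusted p below 0.01 with a difference under 0.5.

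EGF was compared with PBS to show what the growth factor adds to the medium. A single lncRNA start was gained (0.0277%, beside 0.0333% of all sites) and 11 were lost (0.305%, beside 0.196% of all sites). The median difference was −0.00889 over lncRNA starts and −0.00517 over all sites. The gained start, LINC02739 on chromosome 11, was open in 8 of 8 EGF libraries, with fold enrichments of 7.27 to 13, and in 4 of 4 CTRL libraries, with 7.87 to 11.1. No PBS library showed it, and the groups did not overlap (difference 0.650 ± 0.123, limma adjusted p 0.00634). Its nearest summit fell on the annotated start itself.

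LINC00598 (chr13:40350251-40350854) was the named start with the lowest p among those lost. It was open in all 4 CTRL libraries, at fold enrichments of 3.36, 3.61, 5.41 and 6.75. All 6 PBS libraries showed it, at 6.20, 3.6 and 4.77 at 24 h and 7.22, 7.51 and 4.79 at 48 h. Of the 8 EGF libraries only replicate C at 48 h did, at 5.33, and no library with OSM, IFNG+EGF or TGFB+EGF did, while HGF showed it in 4 of 6. The EGF difference was −1.14 ± 0.147, with a limma adjusted p of 0.000164.

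ENSG00000290062 (chr6:11350228-11350769), in an intron of NEDD9, was open in 5 of 6 PBS, 4 of 4 CTRL and 0 of 8 EGF libraries (−1.25 ± 0.158, limma adjusted p 0.000145). It was open in 5 of 6 IFNG+EGF libraries, and also in 4 of 6 HGF, 4 of 6 OSM and 1 of 6 TGFB+EGF libraries. With IFNG+EGF against EGF it was called gained with an adjusted p of 1.15e-05 in limma, although both comparisons share the EGF libraries. KLKP1, a kallikrein pseudogene, was open in 5 of 6 PBS and 2 of 8 EGF libraries (−0.932 ± 0.162, adjusted p 0.00319), and MIR4713HG, a microRNA host gene, in the same numbers (−0.954 ± 0.182, adjusted p 0.00655). The nearest summit of MIR4713HG lay 792 bp from its start. LINC01566 was open in 4 of 6 PBS and 0 of 8 EGF libraries (−0.929 ± 0.183, adjusted p 0.00839).

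FAM106A was open in 5 of 6 PBS libraries, in 0 of 4 EGF libraries at 24 h and in 4 of 4 at 48 h. Its averaged difference was −0.704 ± 0.136 (limma adjusted p 0.00751), and the difference between the times was 0.945 with an adjusted p of 0.373. FAM106A has near-identical copies, so the placement of its reads is uncertain.

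The EGF counts moved with single libraries. Without PBS at 24 h replicate A or PBS at 48 h replicate C 32 and 48 starts were called. Without PBS at 24 h replicate B 3 were called, without replicate A or B of PBS at 48 h 2 each, and without EGF at 48 h replicate B or C 4 and 7. The direction also moved with the scale: unadjusted detection gave 10 gained and 1 lost, and ranks of fold enrichment gave 6 gained and 16 lost. Without the libraries under 30000 peaks there were 7 gained and 10 lost. Without the libraries set aside 0 were gained and 10 lost, of which 9 were among the 11, and LINC02739 and KLKP1 were no longer called (differences 0.606 and −0.908).

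OSM, a cytokine of the interleukin-6 family, gained 12 lncRNA starts against PBS (0.333%, beside 0.309% of all sites) and lost 10 (0.277%, beside 0.188% of all sites). The median difference was −0.00977 over lncRNA starts and over all sites. Most gained starts were also open in CTRL and EGF cells, since 11 of the 12 were found in all 4 CTRL libraries. LINC02739 was open in 5 of 6 OSM libraries, with fold enrichments of 4.92 to 7.36, and 0 of 6 PBS libraries (0.802 ± 0.132, limma adjusted p 0.00229). SFTA3, whose nearest summit lay at −938 bp, upstream of the start, was open in 6 of 6 OSM libraries, at 4.98 to 15.9, and in 1 of 6 PBS libraries, at 9.32 (0.834 ± 0.150, limma adjusted p 0.00467). The median summit of the SFTA3 site also fell in an intron of a protein-coding gene of the same symbol, 40433 bp from the nearest protein-coding start. ENSG00000232031 was open in 6 of 6 and 1 of 6 (0.830 ± 0.145, limma adjusted p 0.00352). MAP4K3-DT, divergent from MAP4K3, and LINC01704 were each open in 5 of 6 and 1 of 6, with limma adjusted p-values of 0.00944 and 0.00978.

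LINC00598 was lost with OSM as with EGF, with 0 of 6 OSM against 6 of 6 PBS libraries (−1.05 ± 0.157, limma adjusted p 0.000820). The EGF and OSM comparisons share the PBS libraries, and the HGF difference at the same site was −0.598 with an adjusted p of 0.188 in limma. ENSG00000231705 and LINC02289 were each open in 6 of 6 PBS and 1 of 6 OSM libraries (−0.870 ± 0.142 and −0.887 ± 0.149, limma adjusted p 0.00220 and 0.00254). AQP4-AS1, antisense to the aquaporin gene AQP4, was open in 5 of 6 PBS and 0 of 6 OSM libraries (−0.894 ± 0.178, limma adjusted p 0.00858). The nearest summit of AQP4-AS1 lay 671 bp from its start. LINC02941 and 1 start of LINC00511, a lncRNA studied in breast cancer, were each open in 6 of 6 PBS and 2 of 6 OSM libraries (−0.670 ± 0.134, limma adjusted p 0.00858).

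A total of 32 of the 42 fits that left out 1 library moved the count of 22 by more than 1.5 times, and 1 of the 22 calls was made in all of them. The count was 49 without PBS at 24 h replicate A, 64 without PBS at 48 h replicate C and 52 without OSM at 24 h replicate A. It was 1 without OSM at 48 h replicate C, 4 when either of replicates A and B of PBS at 48 h was left out, 5 without PBS at 24 h replicate C or OSM at 24 h replicate B, 6 without PBS at 24 h replicate B and 9 without OSM at 24 h replicate C. It was 8 to 13 without any 1 library of CTRL, EGF at 48 h, IFNG+EGF at 48 h or TGFB+EGF at 24 h, without EGF at 24 h replicate A, C or D, without replicate A or B of HGF at 24 h or 48 h, or without TGFB+EGF at 48 h replicate B. Ranks of fold enrichment gave 25 gained and 8 lost, unadjusted detection 1 and 1, and the fit without libraries under 30000 peaks 26 and 13. Without the libraries set aside, which left 1 OSM library at 48 h, 28 were gained and 16 lost, and these took in 4 of the 12 gained and 5 of the 10 lost starts above. LINC02739, ENSG00000232031 and LINC02289 were then no longer called (0.694, 0.578 and −0.819), nor were LINC02941 and LINC00511 (−0.351 each), and SFTA3 had a difference of 0.528.

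No lncRNA start was called with TGFB+EGF against EGF, where 0.00232% of all sites were gained and 0% lost, or with HGF against PBS, where 0% of all sites were gained and 0.000774% lost. With TGFB+EGF 107 starts were higher and 120 lower at an unadjusted limma p below 0.05 (2.97% and 3.33%, beside 4.11% and 3.66% of all sites), and the lowest adjusted p was 0.0153. With HGF 152 were higher and 134 lower (4.21% and 3.72%, beside 4.25% and 3.14% of all sites), with a lowest adjusted p of 0.0643. Medians were −0.0158 for TGFB+EGF and −0.00399 for HGF over lncRNA starts, and −0.00903 and −0.00399 over all sites. Of the 6 TGFB+EGF libraries 4 listed fewer than 30000 peaks, and without all such libraries 15 starts were gained and 2 lost. Without the libraries set aside 13 were gained and 4 lost with TGFB+EGF, and 0 were called with HGF. Unadjusted detection gave 3 gained and 148 lost with TGFB+EGF, and ranks of fold enrichment gave 5 gained. Shares of all sites are not given for these alternative fits, so the counts cannot be read as particular to lncRNA starts. Leaving out TGFB+EGF at 48 h replicate B gave 3 calls, and leaving out PBS at 24 h replicate A, TGFB+EGF at 24 h replicate A, HGF at 24 h replicate C, HGF at 48 h replicate A, B or C, or EGF at 48 h replicate A gave 1. For HGF, leaving out PBS at 24 h replicate A or PBS at 48 h replicate C gave 3 starts, and leaving out PBS at 24 h replicate B gave 1.

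No lncRNA start had a called difference between 48 h and 24 h in any of the 5 comparisons by limma. The shares of all sites called were 0.00155% for IFNG+EGF, 0% for TGFB+EGF, 0.000774% for EGF, 0.00155% for HGF and 0.00309% for OSM. At an unadjusted p below 0.05 there were 216 starts for IFNG+EGF, 199 for TGFB+EGF, 210 for EGF, 177 for HGF and 228 for OSM. These are 5.99%, 5.52%, 5.82%, 4.91% and 6.32% of the starts, beside 6.65%, 5.18%, 6.06%, 4.68% and 5.2% of all sites. In an alternative chosen after seeing the data, without the libraries under 30000 peaks, which left 2 libraries of IFNG+EGF and 1 of TGFB+EGF at each time, 38, 15, 1, 4 and 1 starts were called in these comparisons. Without those set aside 36, 24, 4, 3 and 5 were called, with 1 library left for TGFB+EGF at each time and for OSM at 48 h.

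A total of 26 lncRNA starts (0.721%, beside 1.31% of all sites) were seen in at least 3 IFNG+EGF libraries and in no library of any other treatment. The same count was 6 for CTRL (0.166%, beside 0.132% of all sites), 3 for OSM (0.0832%, beside 0.0673%) and 0 for HGF (0%, beside 0.0217%). It was 1 each for PBS, EGF and TGFB+EGF (0.0277%, beside 0.0170%, 0.0565% and 0.0317%).

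At an unadjusted limma p below 0.05, 239 lncRNA starts were higher and 171 lower with IFNG+EGF (6.63% and 4.74%, beside 8.01% and 5.82% of all sites). With EGF 280 were higher and 211 lower (7.76% and 5.85%, beside 7.17% and 6.09%), and with OSM 260 were higher and 262 lower (7.21% and 7.26%, beside 7.11% and 6.17%).

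Several lncRNA genes held many starts, and these were open in different numbers of libraries. Differences between starts of a gene were not tested. LINC00511 had 14 start sites on chromosome 17, open in 2 to 37 libraries, of which only that at chr17:72592512-72592946 was called. That call was made in 16 of the 42 fits that left out 1 library. It was not made with unadjusted detection, ranks, the replicate block, the lane, peaks with −log10 q of at least 5 or the compared treatments alone. Nor was it made without the libraries under 30000 peaks or those set aside. The neighbouring start of the same gene, at chr17:72588724-72589637, was open in 4 of 6 OSM and 5 of 6 PBS libraries, and the next one, at chr17:72602633-72603831, in 6 of 6 and 5 of 6. MIR100HG, a microRNA host gene, had 9 starts open in 3 to 34 libraries. Its start at chr11:122070079-122070356 was open in 3 of 6 IFNG+EGF libraries and in no other library (difference 0.463 ± 0.115, not called). That start was kept only through IFNG+EGF and had to differ, so its values are a description. The remaining 8 starts of MIR100HG were open in 2 to 5 of the 6 IFNG+EGF libraries, and none was called.

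LINC00598 had 5 starts on chromosome 13. The called start and its upstream neighbour at chr13:40536678-40537334 were absent with OSM, IFNG+EGF and TGFB+EGF. The neighbour was open in 3 of 4 CTRL, 3 of 6 PBS, 3 of 6 HGF and 0 of 8 EGF libraries (EGF difference −0.611, limma adjusted p 0.0468, not called). The 3 starts farther along the gene were open in 16, 29 and 31 libraries, with EGF in 3, 7 and 8 of 8.

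**Figure D5:**
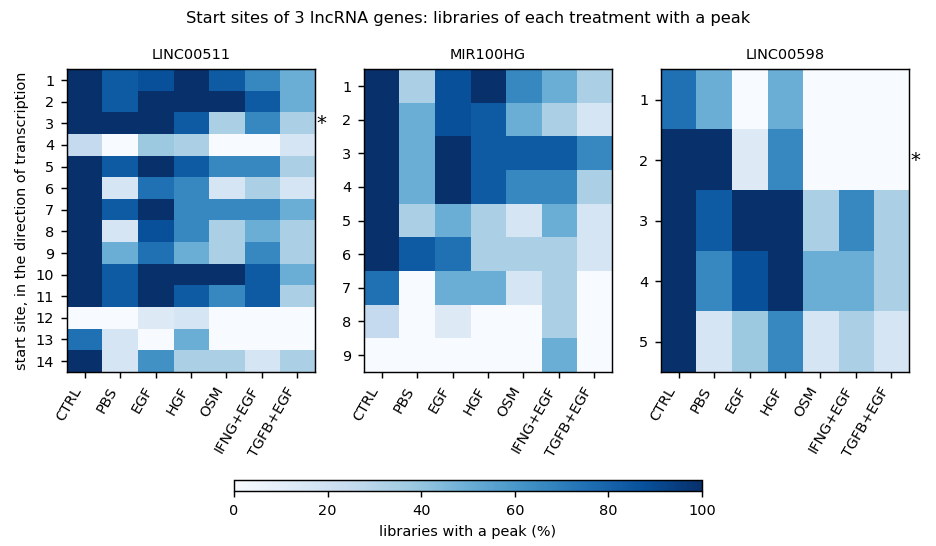
Share of the libraries of each treatment with a peak (colour, 0 to 100%) at the start sites of LINC00511 (14), MIR100HG (9) and LINC00598 (5), ordered along each gene in the direction of transcription, with called starts starred. The uppermost pair of rows of LINC00598 are empty with OSM, IFNG+EGF and TGFB+EGF, and the last row of MIR100HG is filled with IFNG+EGF alone.

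Known lncRNAs were taken from 5 lists. Of 43 microRNA host genes 27 held 53 start sites, open in a median of 25 libraries. MIR205HG, the host of an epithelial microRNA, was open in 38 libraries, MIR17HG in 38 and MIR181A2HG in 39, and MIR137HG in 6. MIR4713HG, lost with EGF, was not on the list. None of the 53 was called, and 3 were past an unadjusted p of 0.05 with IFNG, 2 with TGFB, 4 with EGF, 3 with HGF and 6 with OSM in limma. These are 5.66%, 3.77%, 7.55%, 5.66% and 11.3% of the list, beside 13.8%, 7.78%, 13.3%, 7.38% and 13.3% of all sites. Those with IFNG include a start each of MIR100HG and MIR4435-2HG that were kept only through IFNG+EGF and had to differ. Median differences on this list ran from −0.0247 with TGFB to −0.00918 with IFNG.

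Of 32 small nucleolar RNA host genes 17 held 22 sites, and 63.6% of these were CpG-rich, beside 19.9% of all lncRNA starts. They were open in a median of 26 libraries, with DANCR in 40, SNHG15 and SNHG12 in 38, and the starts of ZFAS1 in 4 and 3. At an unadjusted limma p below 0.05 there were 3 sites with IFNG, 2 with TGFB, 3 with EGF, 2 with HGF and 2 with OSM. These are 13.6%, 9.09%, 13.6%, 9.09% and 9.09% of the list, beside 13.8%, 7.78%, 13.3%, 7.38% and 13.3% of all sites. SNHG28 (chr1:159848824-159849274), 1 of the 22 sites, was the only one called, gained with IFNG as were 1.13% of all sites. It was open in 5 of 6 IFNG+EGF, 3 of 8 EGF, 4 of 4 CTRL and 4 of 6 OSM libraries and in no PBS or HGF library (IFNG difference 0.736 ± 0.168, limma adjusted p 0.00629). This call was not made with unadjusted detection, ranks, peaks with −log10 q of at least 5 or the compared treatments alone. Nor was it made without the libraries under 30000 peaks or those set aside, and 31 of the 42 fits without 1 library made it.

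Of 50 lncRNAs studied in epithelial growth and cancer 25 held 66 sites, with a median of 20.5 libraries. MALAT1 was open in 36 libraries and NORAD, which binds Pumilio proteins, in 33. Low detection was seen at starts of H19, the imprinted lncRNA, in 2 and 12 libraries, MEG3 in 6 and NEAT1 in 3, which are starts away from protein-coding genes and not every start of these genes. The called start of LINC00511 was the only call, 1 of 66, lost with OSM, where 0.188% of all sites were lost. At an unadjusted limma p below 0.05 there were 4 sites with IFNG, 3 with TGFB, 9 with EGF, 6 with HGF and 7 with OSM. These are 6.06%, 4.55%, 13.6%, 9.09% and 10.6% of the list, beside 13.8%, 7.78%, 13.3%, 7.38% and 13.3% of all sites.

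Of 22 lncRNAs linked to interferon and inflammation 9 held 13 sites, and none was called in any comparison. With IFNG the median difference was 0.0521 over these, beside −0.0296 over all lncRNA starts, and 1 of 13 (7.69%) was past an unadjusted p of 0.05 in limma, beside 13.8% of all sites. This was NRIR (chr2:6833093-6833564), a lncRNA known to restrain the interferon response, which was open in 3 of 6 IFNG+EGF libraries and in no other library. NRIR was kept through that group alone and had to differ, so this share is a description only. Its difference of 0.463 ± 0.105 was under the size required. LUCAT1 was open in 39 and 35 libraries at its pair of sites, and IRF1-AS1 in 9. Of 19 lncRNAs linked to TGF-beta and mesenchymal cells 4 held 13 sites, 9 of them of MIR100HG. None was called, the median difference with TGFB was −0.0664 beside −0.0158 over all lncRNA starts, and 0 of 13 were past an unadjusted p of 0.05 in limma, beside 7.78% of all sites.

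A total of 24 lncRNA starts (0.665%, beside 0.430% of all sites) were open in all 42 libraries, among them libraries with as few as 4217 peaks. Of these 9 were CpG-rich. Their median fold enrichments ran from 5.12 to 16.7. The 10 named starts with the highest values were LINC02564 at 16.7, LINC01937 at 16.0, CASC15 at 14, FAM230C at 13.8, LINC02912 at 12.5, PVT1 at 12.4, LINC01138 at 11.9, ITGB1-DT, within the body of the integrin gene ITGB1, at 11.4, LINC02580 at 9.94 and the pseudogene ROCK1P1 at 9.47. LINC02564 lies at a chromosome end, and FAM230C and ROCK1P1 have near-identical copies, so the reads behind their peaks cannot be placed with certainty.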

How the data were processed

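ATAC-seq peak lists of 42 MCF10A libraries in 13 groups of treatment and time were analysed, with groups taken from the sample labels. The authors trimmed reads with Trimmomatic 0.36.5, aligned them to hg38 with Bowtie2 2.3.4.1, removed mitochondrial alignments, removed PCR duplicates with Picard and called peaks in each library with MACS2 2.1.1.20160309.5 at a q-value of 0.01, and the submitters' processing notes also name deepTools 3.1.2. The deposited values per peak are its positions in bp, an integer score, the fold enrichment at the summit as a ratio over local background, and −log10 of the p-value and q-value, as MACS2 gives them. The authors' files hold no read counts, so depth is unknown, the number of peaks was the only measure related to it, and no floor or counting interval was given. The number of peak-value columns that could not be tied to a sample was 0.

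Peaks were merged into sites and assigned to GENCODE release 44 starts as described above (Python 3.11.15, numpy 2.4.6, pandas 2.3.3, scipy 1.17.1). Adjusted detection was fitted with limma 3.58.1 in R 4.3.3, in 1 model of 13 groups with 29 residual degrees of freedom, after a test of the procedure on simulated data. The differences of 24 h and 48 h were averaged with equal weight, and Benjamini-Hochberg adjustment ran over all 129254 sites. A difference in adjusted detection can exceed 1 because each library is measured against its own usual rate. Alternatives were unadjusted detection, ranks of fold enrichment, the compared treatments alone, the replicate letter as a block, the sequencing lane (read from deposited file names) as a term, peaks with −log10 q of at least 5, merging at 100 bp of overlap, membership by the median summit, and leaving out libraries. The libraries set aside by the study were read from its sample sheet.

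In each comparison the text names the first 10 gained and 5 lost starts with a symbol by adjusted p, and starts without a symbol only when among the 2 lowest adjusted p-values. It also names lncRNAs of the 5 lists and up to 10 named starts open in all libraries by median fold enrichment. A few further starts are named only because they are neighbours in a gene with several starts. The lncRNA starts, lists and tests were chosen with earlier results of these data known. A few items, among them 1 blood marker and 1 sequence, are not reported here.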

Additional observations from a re-analysis of the deposited data

Results flagged for a closer look

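The share of lncRNA starts that were not CpG-rich detected in CTRL was 75.1% in replicate D, and its gap to the next library took up 0.898 of the range of the 4 CTRL libraries, over Dixon's critical value for 4 samples. This was 1 of 18 such group checks, and chance flags about 1 in 20 groups. On the adjusted scale the 4 CTRL libraries ranged from 0.230 to 2.11 points for these starts.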

How the results depend on the processing

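Counts of called lncRNA starts depended on the scale and on the libraries in the fit, and no named start reversed its direction. Ranks of fold enrichment gave 26 calls with IFNG+EGF, 5 with TGFB+EGF, 22 with EGF and 1 with HGF, and unadjusted detection gave 151 with TGFB+EGF and 2 with OSM. Fitting only the compared treatments gave 8 calls with IFNG+EGF, 0 with EGF and 0 with OSM. The lane as a term gave 6 with EGF and 9 with OSM, and peaks with −log10 q of at least 5 gave 6 and 4. Without the 8 libraries under 30000 peaks there were 78 with IFNG+EGF, 17 with TGFB+EGF, 3 with HGF and 39 with OSM. Without the 12 libraries that the study set aside, an alternative chosen after seeing the data, there were 72 with IFNG+EGF, 17 with TGFB+EGF, 10 with EGF, 0 with HGF and 44 with OSM. The differences between times, whose alternatives were chosen after seeing the data, gave 38, 15, 1, 4 and 1 calls for IFNG+EGF, TGFB+EGF, EGF, HGF and OSM without these libraries, and 1 for OSM with ranks. Without the libraries set aside they gave 36, 24, 4, 3 and 5, and where these fits left 1 library in a group it was assumed to vary like the others. Leaving out 1 library gave 21 to 95 calls with IFNG+EGF, 0 to 3 with TGFB+EGF, 2 to 48 with EGF, 0 to 3 with HGF and 1 to 64 with OSM. The causes of these changes were not tested, beyond the smaller number of libraries in the fits that leave some out. Shares of all sites called in the alternative fits are not given, so their counts cannot be read as particular to lncRNA starts.

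Correlations of deviations between libraries of the same replicate letter ran from −0.0463 to 0.148 over 30 pairs. They exceeded 0.1 in 2 pairs, both in HGF against PBS, and the main fit had no block for the letter. Detection is only present or absent at a site, so low values cannot show that a letter marks no shared culture or day. With the letter as a block there were 37 calls with IFNG+EGF, 0 with TGFB+EGF, 6 with EGF, 0 with HGF and 9 with OSM. Of the 33 named calls, 24 held under the block, 24 with the lane, 30 without the libraries under 30000 peaks, 26 without those set aside, 18 with unadjusted detection, 12 with stricter peaks, 10 with ranks and 5 in the compared treatments alone. Merging at 100 bp or taking the median summit gave 43 and 41 calls with IFNG+EGF and left the adjusted mean of all 13 groups within its SD.

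The main limits are the unknown depth, groups of 3 or 4 libraries, peak numbers that differ between groups, and 12 libraries that did not pass the study's own quality check. A start without a listed peak is below the peak threshold, which is not the same as closed, and a peak at a start does not show that the lncRNA is transcribed.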
